A study of Mus musculus with 9 samples.

Results

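The transcripts of the mitochondrial genome were examined in embryoid bodies (EBs), the aggregates that mouse embryonic stem (ES) cells form when they begin to differentiate. The members were all genes of the count table whose symbol begins with mt-, and 37 of the 55471 gene identifiers met this rule. They comprised 13 protein-coding genes, 2 rRNA genes and 22 tRNA genes, all on chromosome M of GRCm38. Of these genes, 28 lay on the plus strand of the annotation, here called the heavy-strand genes after the strand that templates them, and 9 lay on the minus strand, here called the light-strand genes.

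The mitochondrial genome is a small circle that is copied into long RNAs from both strands by a dedicated RNA polymerase, POLRMT. These RNAs are cut apart where tRNAs lie between the other genes, and the released mRNAs and rRNAs receive short poly(A) tails. The mRNAs encode core subunits of respiratory complexes I, III and IV and of the ATP synthase, and the rRNAs and tRNAs serve the mitochondrial ribosome that translates them, whereas every other protein of this system comes from nuclear genes.

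RNA was sequenced from 3 groups of 3 libraries, all harvested on day 3 of in vitro differentiation after hanging drop culture. WT EBs came from the parental ES cell line E-14. KO EBs, labelled Tnfaip2-/-, came from 1 ES cell clone in which CRISPR-Cas9 had introduced a premature stop codon into Tnfaip2. KO_PAPC EBs came from the same Tnfaip2-/- cells and were grown with 8 μM of PA (palmitic acid, a fatty acid) and 8 μM of PC (palmitoyl-L-carnitine, the form in which it enters mitochondria). The study's methods place these lipids in the medium from EB formation onward. For that step they name MEF (mouse embryonic fibroblast) medium with the lipids, but ES cell medium in the general protocol. As described, a difference of medium in that step cannot be told apart from one of the lipids. Per the study's methods and legends, the KO EBs compared with KO_PAPC received a vehicle control, and each library of that pair came from a pool of EBs. The same 3 KO libraries are compared with WT below. No vehicle is stated for the WT EBs sequenced, so vehicle may differ there too. The series asked how the transcriptome of differentiating EBs depended on Tnfaip2 and on these lipids. A difference between KO and WT cannot be told apart from a difference between 1 clone and its parental line, and no WT EBs with PA and PC were analysed here. In bulk RNA, fewer cells of a type and less RNA per cell cannot be told apart.

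Library totals ranged from 27362913 to 28914312 counts, and replicates of a group differed by more than counting noise (chi-square per degree of freedom between 1.22 and 3.45 over all pairs). Tnfaip2 had 16, 6 and 10 counts in WT, 5, 6 and 8 in KO, and 25, 14 and 16 in KO_PAPC. A count per gene does not read the edit, so these values did not check the genotype labels. All 7 pluripotency markers had a mean above 1 CPM (a count scaled to a library total of 1000000) in every group, and their summed level was 2897 to 2941 CPM in WT EBs, 3810 to 3850 in KO EBs and 2992 to 3063 in KO_PAPC EBs. Neuroectoderm markers (3 genes) summed to 124 to 128 CPM in WT EBs, 37.1 to 40.8 in KO EBs and 203 to 206 in KO_PAPC EBs, and mesoderm markers (3 genes) to 35.9 to 38.6, 23.8 to 24.1 and 46.7 to 49.9 CPM. Primitive endoderm markers (4 genes) summed to 78.1 to 82.1 CPM in WT EBs, 42.4 to 45.2 in KO EBs and 5.47 to 6.65 in KO_PAPC EBs, and fibroblast markers (5 genes, for feeder cells) to 8.66 to 9.38, 16.2 to 17.8 and 11 to 12.5 CPM. No marker was at 0 in all libraries of a group. The summed marker levels thus moved with the groups compared below, and their part in the mitochondrial values was not tested.

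Some members share their sequence with nuclear copies. Mitochondrial DNA has been copied into the nuclear genome in the past, and a read that matches both copies equally well is a multi-mapping read, which was not counted. Chromosome 1 carries 7 annotated pseudogenes between positions 24611535 and 24616197 that are co-linear with chromosome M from 6394 to 11042. The edge of this copied stretch lies inside mt-Co1, and the following windows of 51 bases, the read length, show it beside the same window of the pseudogene Gm29216, with capitals at the bases that differ.
mt-Co1: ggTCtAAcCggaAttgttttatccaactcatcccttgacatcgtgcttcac
Gm29216: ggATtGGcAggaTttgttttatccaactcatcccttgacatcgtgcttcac
The upper window is chrM:6381-6431 on the plus strand and the lower one chr1:24616147-24616197 on the minus strand. They differed at 6 bases, all near the 5′ end, and from there onward the pseudogene matched mt-Co1 base for base. Within the stretch, the first 51 bases of mt-Co2 (chrM:7013-7063, plus strand) were identical, with 0 differing bases, to chr1:24615515-24615565 (minus strand) in the pseudogene Gm28661, and the shared window is shown because mt-Co2 was listed at 0.
mt-Co2: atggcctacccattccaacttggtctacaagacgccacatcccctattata
These sequences were taken from the GENCODE M21 transcripts on GRCm38.

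Of the 37 members, 23 had counts in at least 1 library and 14 were listed at 0 in all 9 libraries. The 14 were 6 protein-coding genes and 8 tRNA genes. The protein-coding genes at 0 were mt-Co2 and mt-Co3 (subunits of cytochrome c oxidase, complex IV), mt-Atp6 and mt-Atp8 (ATP synthase), and mt-Nd3 and mt-Nd4l (NADH dehydrogenase, complex I). The tRNA genes at 0 were mt-Tw, mt-Ty, mt-Ts1, mt-Td, mt-Tk, mt-Tg, mt-Tr and mt-Th. The copied stretch holds 11 members in full, and each of the 11 was at 0. The 3 members at 0 outside it were mt-Tw, mt-Ty and mt-Th.

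The share of a gene's 51-base windows that also occur in annotated nuclear transcripts was 100% for mt-Co2, 99.9% for mt-Co3, 99.5% for mt-Atp6, 98.8% for mt-Nd4l and 98.0% for mt-Nd3. It was 0% for mt-Atp8 and for the tRNA genes at 0, but only annotated transcripts were searched, and a comparison with the genome sequence was not made here. Among members with counts, mt-Nd4 shared 62.2% and mt-Co1 50.6% of its windows, mt-Nd2 8.00%, mt-Nd5 7.22% and mt-Rnr2 0.979%, whereas mt-Nd1, mt-Nd6, mt-Cytb and mt-Rnr1 shared none. The values of mt-Co1 and mt-Nd4 therefore came from parts of these genes. A value of 0 for mt-Co2, mt-Co3, mt-Atp6, mt-Nd3 or mt-Nd4l gives no limit on its RNA, since nearly no read of it could be counted. The plot of nuclear copies and counts in genome order shows the gap between mt-Co1 and mt-Nd4.

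**Figure D1:**
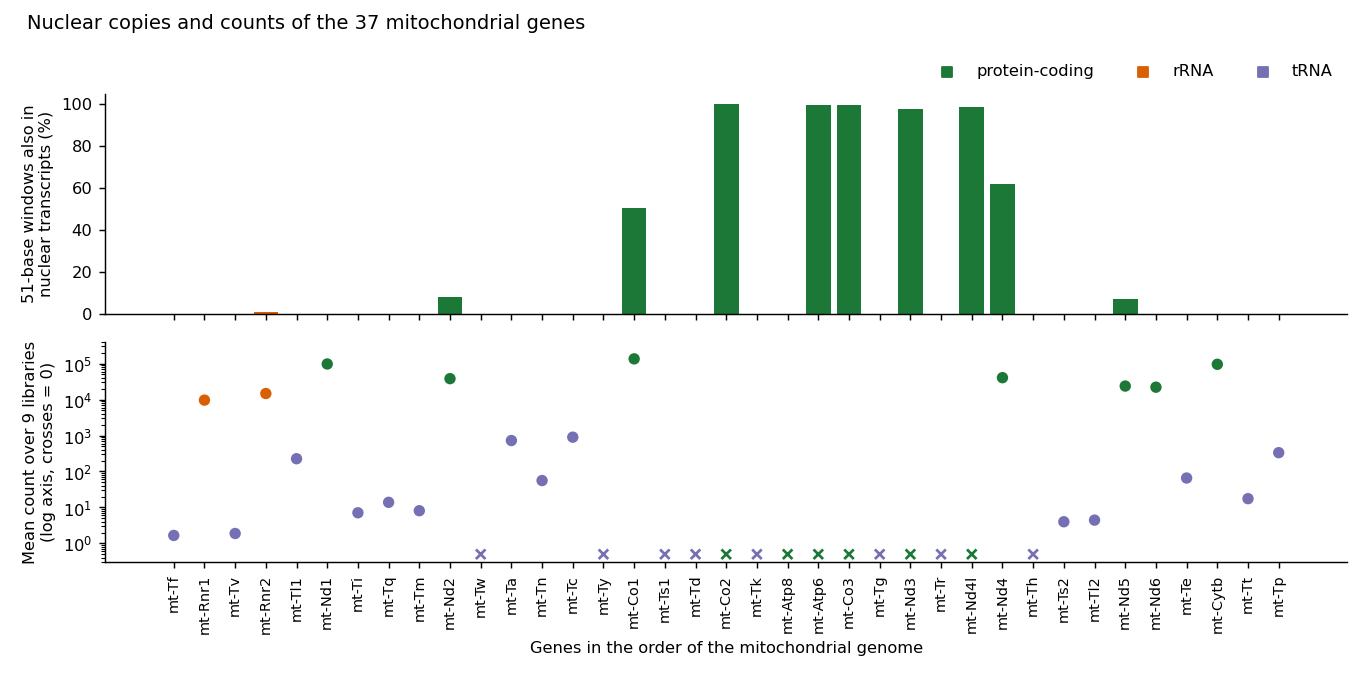
Upper panel, percent of the 51-base windows of each of the 37 genes that also occur in annotated nuclear transcripts; lower panel, mean count over the 9 libraries on a log axis, with crosses for genes at 0. Genes are in genome order and coloured by class. The 14 crosses comprise 6 protein-coding and 8 tRNA genes, and 11 of them lie in the run from mt-Ts1 to mt-Nd4l.

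A mean of at least 10 counts was reached by 17 members: 7 protein-coding genes, both rRNA genes and the tRNA genes mt-Ta, mt-Tn, mt-Tc, mt-Tl1, mt-Tp, mt-Te, mt-Tt and mt-Tq. The other 6 detected tRNA genes (mt-Tf, mt-Tv, mt-Ti, mt-Tm, mt-Ts2 and mt-Tl2) had 0 to 15 counts in a library. A tRNA is little longer than a read, and a read that reached into a neighbouring gene was not counted, so the counts of tRNA genes came from few positions. The kit did not mark strand, so a read over a light-strand gene could come from RNA of either strand. This touched mt-Nd6 and the light-strand tRNA genes mt-Ta, mt-Tn, mt-Tc, mt-Tq, mt-Te and mt-Tp.

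The tRNA genes on which the comparisons below turned are shown as DNA, 5′ to 3′ on their own strand, with the anticodon in capitals.
mt-Ta: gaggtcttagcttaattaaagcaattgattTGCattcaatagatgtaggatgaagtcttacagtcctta
mt-Tn: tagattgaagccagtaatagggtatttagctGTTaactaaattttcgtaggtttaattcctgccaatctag
mt-Tc: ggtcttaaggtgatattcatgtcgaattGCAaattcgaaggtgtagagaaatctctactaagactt
mt-Tl1: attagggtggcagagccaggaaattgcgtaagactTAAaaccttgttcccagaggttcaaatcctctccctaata
mt-Ta at chrM:5018-5086, mt-Tn at chrM:5089-5159 and mt-Tc at chrM:5192-5257 lie side by side on the minus strand between mt-Nd2 and mt-Co1, and carry alanine, asparagine and cysteine. mt-Tl1 at chrM:2676-2750 lies on the plus strand between mt-Rnr2 and mt-Nd1, and is a leucine tRNA. The anticodons were located by their stems, with 5 of 5 pairs in the first 3 tRNAs and 4 of 5 in mt-Tl1.

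Levels were compared between genes as CPM per 100 usable windows. A usable window is a start position whose 51-base read overlaps that gene alone and was not found in annotated nuclear transcripts. Windows reaching into sequence outside the annotated genes could not be searched and were kept. They made up much of the 67 windows of mt-Tp, 55 of mt-Tn and 50 of mt-Tc, with 17, 21 and 16 inside the gene. A usable window need not be countable, as mt-Atp8 had 112 but stood at 0 counts. On this scale, the WT order was led by mt-Co1 at 723 ± 5.29 (SD, n = 3), followed by mt-Nd1 at 395 ± 4.37, mt-Cytb at 367 ± 2.20 and mt-Nd4 at 346 ± 4.16. mt-Nd6 stood at 214 ± 4.93 and mt-Nd2 at 142 ± 0.781, and mt-Nd5 was the lowest of the mRNAs counted, at 57.4 ± 0.780. The tRNA gene mt-Ta lay between mt-Nd2 and mt-Nd5 at 77.5 ± 4.02. Below mt-Nd5 came mt-Tl1 at 41.4 ± 3.44 and mt-Tc at 40.3 ± 1.05, which did not differ beyond their spread, then mt-Rnr1 at 33.0 ± 1.69 and mt-Rnr2 at 24.7 ± 1.21. The lowest were mt-Tp at 17.01 ± 2.62, mt-Te at 12.3 ± 1.87, and mt-Tq, mt-Tt and mt-Tn between 2.21 and 4.42, of which mt-Tq and mt-Tt did not differ beyond their spread.

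This order rests on the count of usable windows. Per annotated length, with no correction for nuclear copies, mt-Nd1 ranked 1 and mt-Co1 ranked 3 in WT. The kit selects RNA with poly(A) tails, so these values rank what the libraries captured. Among the 17 members per 100 windows, mt-Nd5 ranked 8 in WT EBs, 9 in KO EBs and 11 in KO_PAPC EBs. mt-Rnr1 at 45.3 ± 1.53 and mt-Rnr2 at 46.2 ± 2.77 CPM per 100 windows were within each other's spread in KO_PAPC.

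The members together held 1.87, 1.85 and 1.87% of the library counts in WT EBs, 1.96, 1.98 and 1.98% in KO EBs and 1.34, 1.26 and 1.3% in KO_PAPC EBs. The 3 groups did not overlap, and KO_PAPC lay well below the others. The mean share was 1.86% ± 0.0114 (SD, n = 3) in WT EBs, 1.97% ± 0.0131 in KO EBs and 1.301% ± 0.0429 in KO_PAPC EBs. KO was higher than WT by 0.110 percentage points, KO_PAPC minus KO was -0.671 and KO_PAPC minus WT was -0.561 percentage points, each with p = 0.1 by an exact two-sided permutation test, the smallest value that 3 against 3 libraries allow. In all, 54 such tests of shares and ratios were run, and every p of 0.1 became 0.1125 after Benjamini-Hochberg adjustment, so none could pass a threshold of 0.05 and the description rests on whether the ranges overlapped.

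The 3 classes did not move together. Because the kit selects RNA with poly(A) tails, a change in the amount of an RNA cannot be told apart from a change in the part captured. This holds for all group comparisons below, and most of all for rRNA and tRNA genes. Protein-coding genes followed the total, with 1.79% ± 0.00881 of library counts in WT EBs, 1.88% ± 0.0101 in KO EBs and 1.18% ± 0.0369 in KO_PAPC EBs. The rRNA genes held 0.0712, 0.0649 and 0.0661% in WT EBs, 0.0797, 0.0836 and 0.0853% in KO EBs and 0.117, 0.106 and 0.110% in KO_PAPC EBs, so that their groups were ordered WT, KO, KO_PAPC without overlap. The mean rRNA share in KO_PAPC was 1.65 times that in WT and 1.34 times that in KO. The tRNA genes held 0.00694, 0.00644 and 0.00644% in WT EBs, 0.00940, 0.00925 and 0.00989% in KO EBs and 0.00973, 0.00880 and 0.00909% in KO_PAPC EBs. Their share was higher in KO and in KO_PAPC than in WT without overlap, whereas KO and KO_PAPC overlapped (exact permutation p = 0.4). This rise of the sum was not shared by all single tRNA genes. In the tests below, 4 were higher and 2 lower in KO vs WT (median log2 fold change -0.21). In KO_PAPC vs WT, 3 were higher and 3 lower (median -0.040).

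Within the mitochondrial counts, protein-coding genes made up 96.0% in WT EBs, 95.3% in KO EBs and 90.8% in KO_PAPC EBs. The rRNA genes rose from 3.62% ± 0.163 (WT) to 4.20% ± 0.118 (KO) and 8.54% ± 0.146 (KO_PAPC) (SD, n = 3 each), and the tRNA genes from 0.355% ± 0.0139 to 0.483% ± 0.0156 and 0.707% ± 0.0139. None of these ranges overlapped between groups. Among the tRNA genes, mt-Tc alone held 0.108, 0.185 and 0.305% of the mitochondrial counts and mt-Ta 0.0916, 0.150 and 0.238% (means of WT, KO and KO_PAPC).

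**Figure D2:**
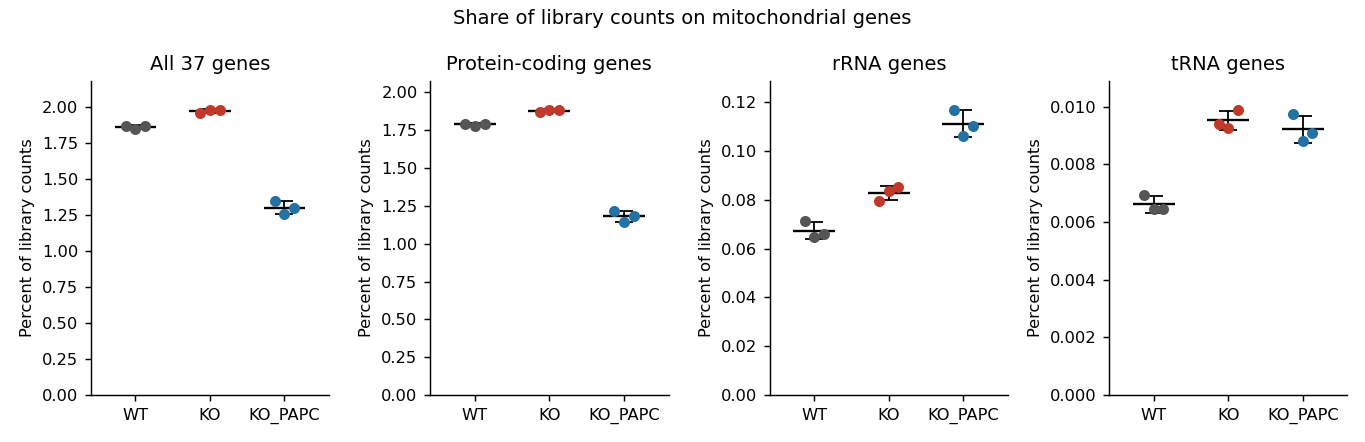
Percent of library counts on all 37 genes, the protein-coding genes, the rRNA genes and the tRNA genes, 1 point per library, with the mean (line) and SD (bars) of each group of 3. KO_PAPC is lowest for the protein-coding genes (1.18% on average) and highest for the rRNA genes (0.111%), and for the tRNA genes only WT stands apart.

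The single members were tested by edgeR's quasi-likelihood test on the whole count table, with TMM scaling, a filter on low counts, and Benjamini-Hochberg adjustment over all genes tested; genes with an adjusted p below 0.05 count as called. Many genes of these EBs were called in each comparison, so the calls of members are given beside that background. Fold changes below are on this scale, which set the median over all genes near 0 (log2 -0.017 in both KO_PAPC comparisons). Scaling by library totals instead moved that median to -0.18 in both, so every KO_PAPC difference below was lower by about that amount on the scale of CPM and shares.

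Tnfaip2-/- EBs were compared with WT EBs first, to ask which mitochondrial genes differed between the genotypes. Of the 18 members tested, 15 were called, 9 higher and 6 lower in KO, beside 73.8% of all genes tested (36.8% higher and 37.1% lower). The share of members called was thus not far from the background, and the directions split within the mRNAs: 3 were higher and 4 lower. The median log2 fold change was 0.041 over the members and -0.0059 over all genes.

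The complex I genes went both ways. mt-Nd2 was at 1292, 1278 and 1282 CPM in WT and at 1974, 2016 and 2024 CPM in KO. All KO libraries lay above all WT libraries, with a log2 change of 0.64 ± 0.018 (SE; edgeR adjusted p = 9.32e-26). mt-Nd5 had 923, 948 and 940 CPM in WT and 1157, 1206 and 1167 CPM in KO, a log2 change of 0.33 ± 0.020 (edgeR adjusted p = 2.5e-16). mt-Nd1 had 3603, 3532 and 3597 CPM in WT and 4131, 4183 and 4196 CPM in KO, a log2 change of 0.22 ± 0.016 (edgeR adjusted p = 4.56e-14). These 3 genes were higher in KO without overlap of the groups.

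Another pair of complex I genes was lower in KO. mt-Nd4 was at 1728, 1731 and 1765 CPM in WT and at 1533, 1533 and 1522 CPM in KO, a log2 change of -0.19 ± 0.018 (edgeR adjusted p = 3.44e-11). mt-Nd6, the only mRNA gene on the light strand, was at 984, 990 and 948 CPM in WT and at 807, 853 and 846 CPM in KO, a log2 change of -0.22 ± 0.022 (edgeR adjusted p = 6.04e-11). mt-Co1, a catalytic subunit of complex IV, and mt-Cytb, the cytochrome b of complex III, differed least. mt-Co1 was at 5298 to 5375 CPM in WT and 5128 to 5213 CPM in KO, and mt-Cytb at 4005 to 4053 and 3872 to 3915 CPM. Their log2 fold changes were -0.043 ± 0.016 and -0.048 ± 0.016 (edgeR adjusted p = 0.0168 and 0.00887), and a fit over all 3 groups together called neither (edgeR adjusted p = 0.061 and 0.053). Without KO replicate 2, mt-Co1 was not called either (-0.034, edgeR adjusted p = 0.125).

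Both rRNA genes were called higher in KO. mt-Rnr2, the large-subunit rRNA, was at 395, 360 and 369 CPM in WT and at 485, 505 and 517 CPM in KO, with a log2 change of 0.42 ± 0.027 (edgeR adjusted p = 7.12e-16). mt-Rnr1, the small-subunit rRNA, was at 317, 288 and 292 CPM in WT and at 312, 331 and 335 CPM in KO, where the groups overlapped, with a log2 change of 0.13 ± 0.029 (edgeR adjusted p = 2.34e-04).

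Of the 9 tRNA genes tested, 4 were higher and 2 lower in KO. The neighbours mt-Ta, mt-Tn and mt-Tc, whose sequences are given above, were all higher. mt-Tc had 20.4, 19.6 and 20.5 CPM in WT and 36.3, 35.5 and 37.9 CPM in KO (log2 fold change 0.86 ± 0.048, edgeR adjusted p = 2.61e-17). mt-Ta had 16.5, 18.1 and 16.6 CPM in WT and 29.3, 28.7 and 30.7 CPM in KO (0.80 ± 0.053, edgeR adjusted p = 3.34e-15). mt-Tn had 44, 29 and 29 counts in WT and 58, 64 and 75 counts in KO (0.92 ± 0.18, edgeR adjusted p = 3.17e-05). The 3 genes gave nearly the same fold change at levels that differed widely, and in each of them the KO libraries lay above the WT libraries.

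mt-Tl1 went the other way, with 312, 297 and 259 counts in WT and 242, 223 and 244 counts in KO (-0.32 ± 0.078, edgeR adjusted p = 4.60e-04). mt-Tq, the glutamine tRNA, had 21 to 28 counts in WT and 6 to 9 in KO (-1.70 ± 0.31, edgeR adjusted p = 1.05e-05). mt-Tp, the proline tRNA, had 378, 276 and 302 counts in WT and 398, 398 and 418 in KO (0.32 ± 0.077, edgeR adjusted p = 4.24e-04). mt-Te, mt-Tt and mt-Tm were not called. mt-Te, the glutamate tRNA, had 98, 72 and 78 counts in WT and 60, 57 and 93 in KO, and without KO replicate 3 it was called lower (-0.51, edgeR adjusted p = 0.00676).

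KO_PAPC EBs were then compared with KO EBs, to ask how the mitochondrial transcripts differed with PA and PC. Of the 16 members tested, 14 were called, 4 higher and 10 lower in KO_PAPC, beside 81.8% of all genes tested. All 7 mRNAs counted were lower, beside 42.2% of all genes called lower, and both rRNA genes were higher, beside 39.6% called higher. The median log2 fold change was -0.34 over the members tested, -0.46 over the mRNAs and 0.57 over the rRNA genes.

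The mRNAs fell by unequal amounts. mt-Nd5 was at 1157, 1206 and 1167 CPM in KO and at 438, 401 and 424 CPM in KO_PAPC, a log2 change of -1.32 ± 0.027 (edgeR adjusted p = 3.47e-32). mt-Nd2 was at 1974, 2016 and 2024 CPM in KO and at 815, 751 and 777 CPM in KO_PAPC (-1.19 ± 0.025, edgeR adjusted p = 7.71e-32). These were the strongest decreases among the members and the only ones past a tested minimum of 1.5-fold. mt-Cytb followed with 3872, 3915 and 3903 CPM in KO and 2394, 2229 and 2276 CPM in KO_PAPC (-0.59 ± 0.023, edgeR adjusted p = 1.56e-23).

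mt-Nd1 went from 4131, 4183 and 4196 CPM in KO to 2776, 2626 and 2687 CPM in KO_PAPC (-0.46 ± 0.022, edgeR adjusted p = 8.02e-21). mt-Nd6 went from 807, 853 and 846 CPM to 584, 533 and 550 CPM (-0.42 ± 0.027, edgeR adjusted p = 1.48e-16), and mt-Nd4 from 1533, 1533 and 1522 CPM to 1127, 1028 and 1070 CPM (-0.34 ± 0.025, edgeR adjusted p = 4.75e-15). mt-Co1 fell least, from 5208, 5128 and 5213 CPM to 4044, 3870 and 4022 CPM (-0.22 ± 0.021, edgeR adjusted p = 1.11e-11). In each of the 7 mRNAs all KO_PAPC libraries lay below all KO libraries.

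The rRNAs rose. mt-Rnr2 went from 485, 505 and 517 CPM in KO to 744, 660 and 699.5 CPM in KO_PAPC, a log2 change of 0.65 ± 0.030 (edgeR adjusted p = 5.67e-21), and mt-Rnr1 from 312, 331 and 335 CPM to 426, 400 and 404 CPM, a log2 change of 0.50 ± 0.028 (edgeR adjusted p = 2.7e-18). The groups did not overlap in either gene. Both rRNA genes precede the mRNA genes in the direction of heavy-strand transcription.

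Among 7 tRNA genes tested, 2 were higher and 3 lower in KO_PAPC. mt-Tc was at 40.9, 39.4 and 38.8 CPM in KO_PAPC against 35.5 to 37.9 in KO (0.28 ± 0.044, edgeR adjusted p = 3.31e-07). mt-Ta was at 33.4, 28.4 and 31.4 CPM in KO_PAPC and overlapped KO (0.24 ± 0.052, edgeR adjusted p = 1.08e-04), and its call was lost with library totals as the scale (0.070, edgeR adjusted p = 0.214). mt-Tn, with 80, 57 and 68 counts in KO_PAPC, was not called (0.27 ± 0.15, edgeR adjusted p = 0.111). It was called without KO_PAPC replicate 2 (0.38, edgeR adjusted p = 0.0332).

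mt-Tl1 was lower again, with 152, 141 and 169 counts in KO_PAPC against 242, 223 and 244 in KO (-0.41 ± 0.091, edgeR adjusted p = 1.12e-04). mt-Tp had 300, 263 and 273 counts in KO_PAPC against 398, 398 and 418 in KO (-0.33 ± 0.070, edgeR adjusted p = 6.26e-05). mt-Te had 55, 43 and 37 counts in KO_PAPC (-0.43 ± 0.18, edgeR adjusted p = 0.0331), and this call was lost when KO replicate 3 (-0.18) or the KO_PAPC replicates 2 (-0.39) or 3 (-0.29) were left out, with no filter (-0.40) and with DESeq2 (-0.42). mt-Tt, the threonine tRNA, had 16, 16 and 17 counts in KO_PAPC and 15 to 20 in KO and was not called. mt-Tq, with 10, 14 and 4 counts in KO_PAPC, did not pass the filter in this comparison.

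**Figure D3:**
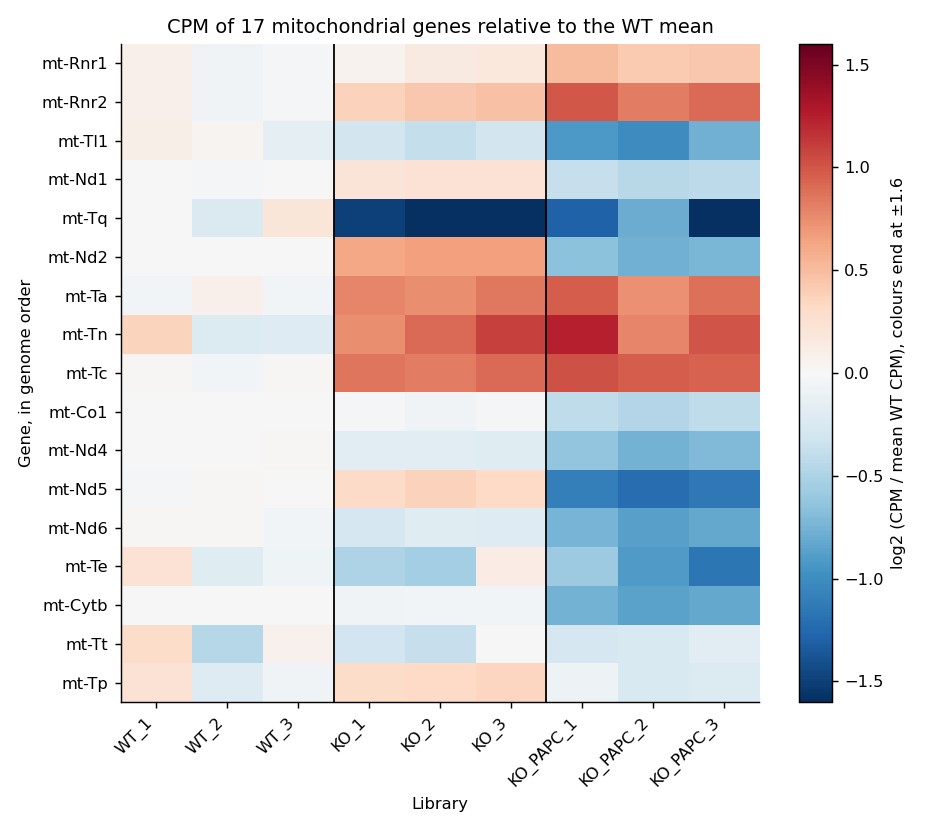
CPM of the 17 genes with a mean of at least 10 counts, in each library, as the log2 ratio to the WT mean of that gene (red higher, blue lower). Rows are in genome order and columns are libraries. mt-Nd2 and mt-Nd5 are red in KO and blue in KO_PAPC, the 3 neighbours mt-Ta, mt-Tn and mt-Tc are red in both, and mt-Tq passes the end of the colour scale in 3 libraries.

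The comparison of KO_PAPC with WT shares its libraries with the preceding pair, so its values are given beside them and not as a further test. Of the 17 members tested, 15 were called, 5 higher and 10 lower in KO_PAPC, beside 70.6% of all genes tested. Of all genes tested, 34.2% were called higher and 36.4% lower. All 7 mRNAs were lower. mt-Nd5 showed a log2 change of -0.99 ± 0.029, mt-Nd6 of -0.64 ± 0.030, mt-Cytb of -0.64 ± 0.025, mt-Nd2 of -0.55 ± 0.027, mt-Nd4 of -0.53 ± 0.028, mt-Co1 of -0.26 ± 0.022 and mt-Nd1 of -0.24 ± 0.024 (edgeR adjusted p between 9.92e-20 and 1.72e-09). In mt-Nd1, mt-Nd2 and mt-Nd5 the KO level lay above and the KO_PAPC level below WT, whereas mt-Nd4, mt-Nd6, mt-Cytb and mt-Co1 were lower in KO than in WT and lower still in KO_PAPC.

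The rRNA genes were higher in KO_PAPC than in WT, mt-Rnr2 by a log2 change of 1.07 ± 0.037 and mt-Rnr1 by 0.62 ± 0.034 (edgeR adjusted p = 2.92e-18 and 2.49e-14). The 3 tRNA genes called higher were mt-Tn (1.18 ± 0.19), mt-Tc (1.14 ± 0.049) and mt-Ta (1.03 ± 0.061), with edgeR adjusted p of 4.30e-06, 1.91e-16 and 1.47e-13. The tRNA genes called lower were mt-Tq (-1.21 ± 0.33), mt-Tl1 (-0.73 ± 0.091) and mt-Te (-0.70 ± 0.17), with edgeR adjusted p of 0.00199, 1.21e-07 and 6.88e-04. mt-Tp (-0.015 ± 0.091) and mt-Tt (-0.065 ± 0.28) were not called.

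**Figure D4:**
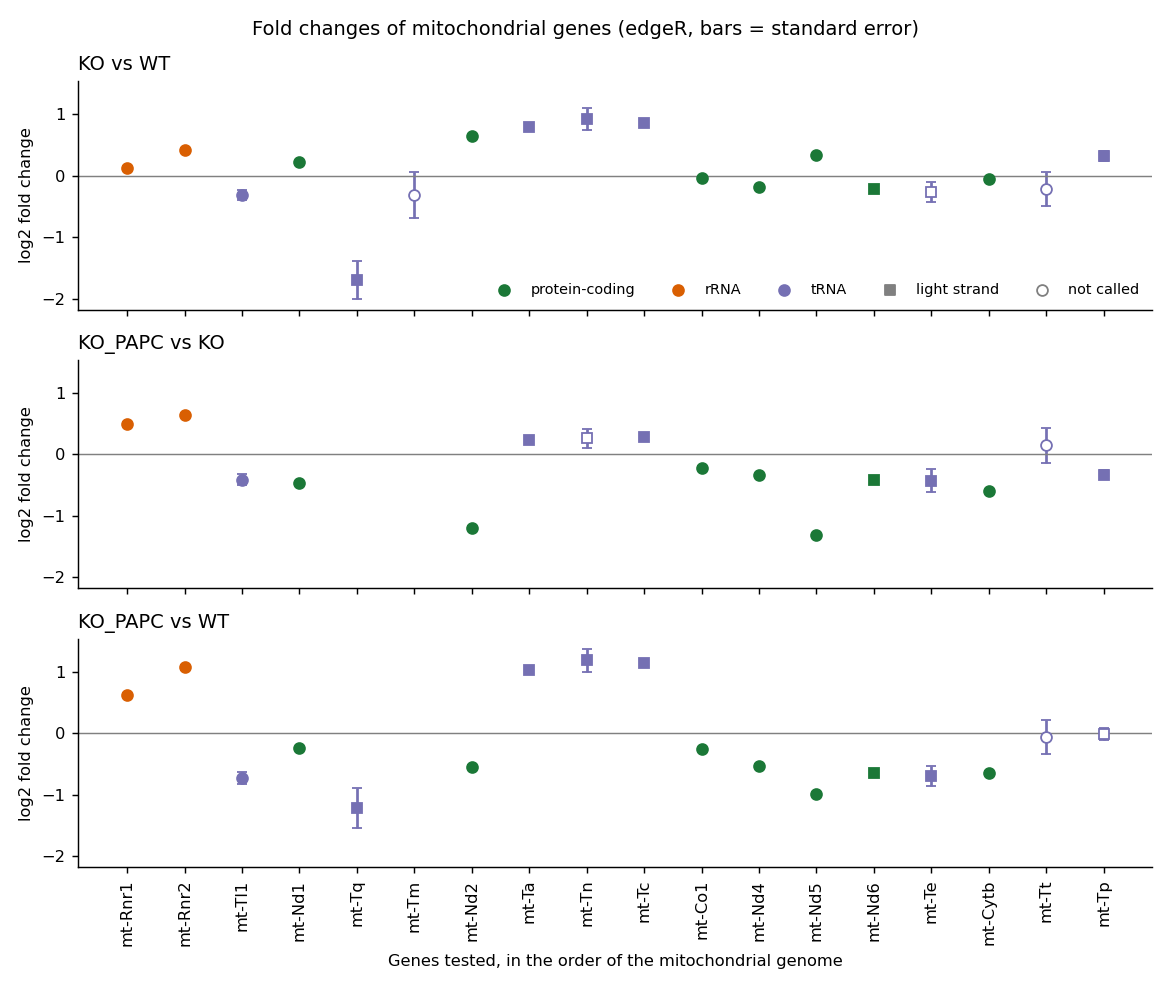
log2 fold change of each member tested, in genome order, for KO vs WT, KO_PAPC vs KO and KO_PAPC vs WT, with bars for the standard error (often smaller than the symbol); squares are light-strand genes and open symbols were not called. In KO_PAPC vs KO the 7 green symbols (mRNAs) run from -1.32 to -0.22, and the orange symbols (rRNAs) stand at 0.50 and 0.65.

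Because the mitochondrial total itself moved, each member was also tested against it, with the summed mt- counts of a library as its library size. This asks which members changed by more or less than the summed mitochondrial counts. That total holds no counts of the 6 mRNA genes at 0 and only parts of mt-Co1 and mt-Nd4, so it is not all mitochondrial RNA. A rise of some members on this scale goes with a fall of others. The median log2 fold change over all genes became -0.089 for KO vs WT, 0.42 for KO_PAPC vs KO and 0.34 for KO_PAPC vs WT. The shares of all genes called on this scale carry that shift, so they are no neutral background for the members. For KO vs WT, 15 of 18 members were called on this scale, 8 higher and 7 lower, beside 74.3% of all genes tested (30.8% higher and 43.5% lower). mt-Nd2 (0.56 ± 0.019), mt-Rnr2 (0.34 ± 0.026), mt-Nd5 (0.25 ± 0.021) and mt-Nd1 (0.14 ± 0.017) gained on the mitochondrial total, and mt-Nd6 (-0.30 ± 0.022), mt-Nd4 (-0.27 ± 0.019), mt-Cytb (-0.13 ± 0.017) and mt-Co1 (-0.13 ± 0.017) lost on it (edgeR adjusted p between 5.32e-24 and 4.81e-08). mt-Rnr1 was not called (0.042 ± 0.028, edgeR adjusted p = 0.176), but it was called higher without KO replicate 1 (0.068, edgeR adjusted p = 0.0421) or without WT replicate 1 (0.082, edgeR adjusted p = 0.00165).

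For KO_PAPC vs KO, 10 of 16 members were called against the mitochondrial total, 7 higher and 3 lower, beside 84.4% of all genes tested (60.1% higher and 24.3% lower). mt-Rnr2 (1.08 ± 0.032) and mt-Rnr1 (0.93 ± 0.033) gained, as did mt-Tc (0.72 ± 0.048), mt-Tn (0.70 ± 0.15) and mt-Ta (0.67 ± 0.054), mt-Co1 (0.22 ± 0.027) and mt-Nd4 (0.090 ± 0.028). The 3 that lost were mt-Nd5 (-0.88 ± 0.030), mt-Nd2 (-0.76 ± 0.028) and mt-Cytb (-0.16 ± 0.027). The edgeR adjusted p of these calls lay between 6.13e-19 and 0.00572. mt-Nd1 (-0.029 ± 0.026), mt-Nd6 (0.012 ± 0.031) and mt-Tl1 (0.025 ± 0.093) were not called on this scale. With the summed mRNA counts as the scale, mt-Nd6 was called higher (0.083, edgeR adjusted p = 0.0149).

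For KO_PAPC vs WT, 15 of 17 members were called against the mitochondrial total, 8 higher and 7 lower, beside 77.4% of all genes tested (59.1% higher and 18.3% lower). The largest values were those of mt-Tn (1.53 ± 0.18), mt-Tc (1.49 ± 0.054), mt-Rnr2 (1.42 ± 0.038) and mt-Ta (1.38 ± 0.062), and mt-Nd5 (-0.64 ± 0.034) was the lowest mRNA.

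With a tested minimum of 1.5-fold on the TMM scale, 5 members were called in KO vs WT, 4 higher and 1 lower, beside 10.8 and 10.1% of all genes. In KO_PAPC vs KO 1 was higher and 2 were lower, beside 15.5 and 22.3%, and in KO_PAPC vs WT 4 were higher and 3 lower, beside 4.31 and 13.4%.

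Ratios of counts within a library need no scaling factor, and they are given for pairs chosen after the values were seen. The ratio of rRNA to protein-coding counts was 0.0397, 0.0365 and 0.0368 in WT EBs, 0.0427, 0.0444 and 0.0452 in KO EBs and 0.0961, 0.0927 and 0.0935 in KO_PAPC EBs. KO_PAPC lay 2.13-fold above KO and 2.5-fold above WT. mt-Rnr2 over mt-Rnr1 was 1.25, 1.25 and 1.26 in WT EBs, 1.55, 1.53 and 1.54 in KO EBs and 1.75, 1.65 and 1.73 in KO_PAPC EBs. The captured rRNAs thus did not rise in equal measure either.

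mt-Nd5 and mt-Nd4 are both read from the heavy-strand RNA, with 3 tRNA genes between them. mt-Nd5 over mt-Nd4 was 0.534, 0.548 and 0.532 in WT EBs, 0.754, 0.786 and 0.767 in KO EBs and 0.388, 0.391 and 0.397 in KO_PAPC EBs, a change of 0.52 on the log2 scale for KO vs WT and of -0.97 for KO_PAPC vs KO. mt-Nd2 over mt-Nd1 was 0.359, 0.362 and 0.357 in WT EBs, 0.478, 0.482 and 0.482 in KO EBs and 0.293, 0.286 and 0.289 in KO_PAPC EBs (log2 differences 0.42 and -0.73). Both ratios stood above WT in KO and below it in KO_PAPC, without overlap. mt-Nd6 over mt-Cytb, neighbours on opposite strands, was 0.235 to 0.247 in WT and 0.239 to 0.244 in KO_PAPC, which overlapped, and 0.208 to 0.218 in KO.

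The summed counts of mt-Ta, mt-Tn and mt-Tc over those of mt-Nd2 were 0.0298, 0.0303 and 0.0297 in WT EBs, 0.0343, 0.0330 and 0.0352 in KO EBs and 0.0947, 0.0931 and 0.0935 in KO_PAPC EBs. KO and WT thus differed by 1.14-fold, and KO_PAPC exceeded KO 2.75-fold. mt-Ta over mt-Tc overlapped in all 3 comparisons, with differences of -0.064, -0.051 and -0.12 on the log2 scale. mt-Tl1 over mt-Nd1 was 0.00261 to 0.00306 in WT EBs, 0.00190 to 0.00205 in KO EBs and 0.00196 to 0.00226 in KO_PAPC EBs, so KO and KO_PAPC overlapped and WT was higher.

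**Figure D5:**
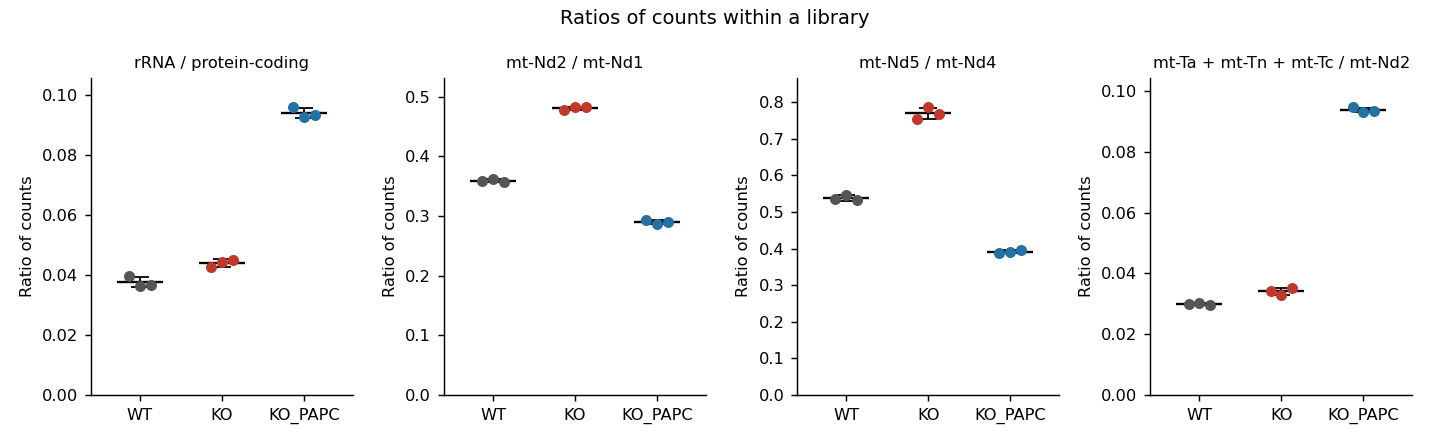
Ratios of counts within each library, 1 point per library, with the mean (line) and SD (bars) of each group of 3. rRNA over protein-coding counts reaches 0.0927 to 0.0961 in KO_PAPC, and mt-Nd2 over mt-Nd1 and mt-Nd5 over mt-Nd4 lie above WT in KO and below it in KO_PAPC.

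Nuclear genes that make, process or translate these RNAs were described from 8 lists. Beside the counts below, 36.8% of all genes tested were called higher and 37.1% lower in KO vs WT, 39.6 and 42.2% in KO_PAPC vs KO, and 34.2 and 36.4% in KO_PAPC vs WT. Of 10 genes of mitochondrial transcription, 4 were higher and 5 lower in KO vs WT, 6 higher and 2 lower in KO_PAPC vs KO, and 7 higher and 1 lower in KO_PAPC vs WT. Polrmt, the RNA polymerase, was at 52.0 ± 2.20 CPM in WT EBs, 48.6 ± 2.37 in KO EBs and 40.4 ± 1.72 in KO_PAPC EBs (SD, n = 3), with log2 fold changes of -0.097 ± 0.041 for KO vs WT, -0.10 ± 0.044 for KO_PAPC vs KO and -0.20 ± 0.044 for KO_PAPC vs WT (edgeR adjusted p = 0.0353, 0.0315 and 2.70e-04).

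Tfam, which packages mitochondrial DNA and acts at its promoters, was at 142 ± 5.34, 166 ± 4.25 and 151 ± 3.10 CPM. It was higher in KO than in WT (0.23 ± 0.029, edgeR adjusted p = 1.23e-08) and not called between KO_PAPC and KO (0.028 ± 0.029, edgeR adjusted p = 0.369). Tfb2m, the initiation factor, was at 3.95 ± 0.228, 4.74 ± 0.281 and 4.57 ± 0.511 CPM and was called higher in KO vs WT (0.26 ± 0.11, edgeR adjusted p = 0.0285). Tefm, the elongation factor, was at 21.5 ± 0.587, 30.0 ± 0.896 and 22 ± 1.1 CPM. It was higher in KO vs WT (0.48 ± 0.049, edgeR adjusted p = 1.44e-10) and lower in KO_PAPC vs KO (-0.28 ± 0.052, edgeR adjusted p = 7.80e-06). Mterf3 was lower in KO (-0.68 ± 0.055) and higher in KO_PAPC vs KO (1.14 ± 0.050), Mterf4 likewise (-0.22 ± 0.052 and 0.39 ± 0.053), and Mrpl12 was higher in both (0.12 ± 0.028 and 0.27 ± 0.031).

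Of 19 genes of mitochondrial DNA replication, 4 were higher and 12 lower in KO vs WT, 13 higher and 3 lower in KO_PAPC vs KO, and 9 higher and 3 lower in KO_PAPC vs WT. Polg, the catalytic subunit of the DNA polymerase, was at 164 ± 4.19, 188 ± 4.15 and 167 ± 6.65 CPM, with a log2 change of 0.20 ± 0.027 for KO vs WT, and it was not called for KO_PAPC vs KO (-0.0044 ± 0.030, edgeR adjusted p = 0.896). Twnk, the helicase, was at 78.8 ± 0.965, 71.4 ± 1.35 and 77.8 ± 1.92 CPM (-0.14 ± 0.032 and 0.29 ± 0.035). Lig3, the DNA ligase of mitochondria, rose from 43.3 ± 0.825 in WT to 89.9 ± 1.44 CPM in KO (1.05 ± 0.035) and stood at 37.1 ± 0.325 CPM in KO_PAPC. Primpol (-0.58 ± 0.059), Slc25a33 (0.72 ± 0.048 for KO_PAPC vs KO) and Dna2 (0.67 ± 0.036 for KO_PAPC vs KO) were the other genes with the strongest calls.

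Of 38 genes of mitochondrial RNA processing, modification and decay, 11 were higher and 13 lower in KO vs WT, 22 higher and 10 lower in KO_PAPC vs KO, and 21 higher and 6 lower in KO_PAPC vs WT. Lrpprc, which stabilises mitochondrial mRNAs, was at 241 ± 1.83, 247 ± 4.23 and 270 ± 2.36 CPM, not called in KO vs WT (0.037 ± 0.024, edgeR adjusted p = 0.166) and higher in KO_PAPC vs KO (0.29 ± 0.026, edgeR adjusted p = 1.16e-12). Its partner Slirp was at 2.59 to 2.98 CPM on average and was called only for KO_PAPC vs WT (0.36 ± 0.14, edgeR adjusted p = 0.0241). The degradosome genes Pnpt1 (exonuclease) and Supv3l1 (helicase) were not called in KO vs WT (0.030 ± 0.031 and -0.031 ± 0.033) and were called higher in KO_PAPC vs KO on the TMM scale (0.12 ± 0.033 and 0.19 ± 0.034). In CPM, Pnpt1 went the other way, from 102 ± 1.44 in KO to 98.7 ± 3.95 in KO_PAPC, and Supv3l1 from 73.4 ± 0.511 to 74.9 ± 1.78. Mtpap, the poly(A) polymerase of mitochondria, was lower in KO (-0.20 ± 0.040) and higher in KO_PAPC vs KO (0.44 ± 0.043). The strongest calls were those of Fastkd3 (-0.84 ± 0.049 in KO vs WT, 1.5 ± 0.050 in KO_PAPC vs KO), Trmu (-0.45 ± 0.067 in KO vs WT) and Ptcd2 (0.87 ± 0.039 in KO_PAPC vs KO).

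Of 17 mitochondrial aminoacyl-tRNA synthetases, which charge the tRNAs, 2 were higher and 11 lower in KO vs WT, 13 higher and 1 lower in KO_PAPC vs KO, and 10 higher and 2 lower in KO_PAPC vs WT. Lars2, which charges the leucine tRNAs, was at 63.6 ± 2.68 CPM in WT EBs, 74.3 ± 2.62 in KO EBs and 166 ± 6.76 in KO_PAPC EBs, a log2 change of 1.33 ± 0.034 for KO_PAPC vs KO (edgeR adjusted p = 4.46e-29). Aars2, for the alanine tRNA, was at 50.3 ± 1.78, 30.4 ± 1.12 and 47.5 ± 1.77 CPM (-0.73 ± 0.043 and 0.81 ± 0.045). Mars2, for the methionine tRNA, was the 1 gene lower in KO_PAPC vs KO (-1.18 ± 0.052), after a rise in KO (0.58 ± 0.043).

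Of 76 genes of the mitochondrial ribosome, 35 were higher and 23 lower in KO vs WT, 35 higher and 26 lower in KO_PAPC vs KO, and 48 higher and 11 lower in KO_PAPC vs WT. Mrpl10 was highest in KO (90.7 ± 2.37, 138 ± 2.81 and 67.0 ± 2.71 CPM), whereas Mrpl34 (64.1 ± 1.37, 50.7 ± 1.43 and 97.4 ± 6.54 CPM), Mrps30 and Mrps21 were lowest there. Of 14 genes on the list of translation factors, 7 were higher and 4 lower in KO vs WT. The numbers were 6 and 6 in KO_PAPC vs KO, and 6 and 2 in KO_PAPC vs WT. Ptcd3, which was placed on this list and not on that of the ribosome, was higher in KO vs WT (0.57 ± 0.032). Mrrf, a ribosome recycling factor, was lower there (-0.21 ± 0.056). Taco1 (-0.87 ± 0.066) and Mtfmt (-0.76 ± 0.061) were lower in KO_PAPC vs KO.

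Nuclear genes of the respiratory chain were called higher in 26 and lower in 35 of 84 for KO vs WT, in 40 and 28 of 83 for KO_PAPC vs KO, and in 37 and 18 of 84 for KO_PAPC vs WT. Their median log2 fold change for KO_PAPC vs KO was 0.072, against -0.46 for the mRNAs of the mitochondrial genome. Ndufs6 of complex I was at 57.5 ± 0.640, 35.1 ± 1.59 and 70.05 ± 2.29 CPM, Cox7c of complex IV at 16.1 ± 1.04, 12.6 ± 0.603 and 22.5 ± 1.09 CPM, and Cox6b2 at 97.6 ± 1.25, 31.4 ± 0.511 and 40.8 ± 3.29 CPM. Atp5s was lower in KO (-0.84 ± 0.076).

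Of 9 regulators of mitochondrial biogenesis tested, 4 were higher and 3 lower in KO vs WT, 6 higher and 2 lower in KO_PAPC vs KO, and 7 higher and 2 lower in KO_PAPC vs WT. Ppargc1a, the best known coactivator of this programme, was at 0.0841 to 0.143 CPM on average, below the limit for a test. Ppargc1b was at 4.59 ± 0.528, 2.81 ± 0.433 and 6.49 ± 0.503 CPM (-0.70 ± 0.13 and 1.37 ± 0.12). Myc was at 15.3 ± 0.552, 10.2 ± 0.532 and 23.0 ± 0.219 CPM. Esrrb, a nuclear receptor that also marks pluripotent cells and is among the markers above, was at 303 ± 1.44, 460 ± 2.03 and 198 ± 0.951 CPM.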

How the data were processed

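Read counts per Ensembl gene were taken as deposited. According to the submitters' processing notes and the study's methods, the authors demultiplexed 51-base single-end reads with bcl2fastq 2.20.0.422, mapped them with STAR 2.7.2b to GRCm38 and counted them with featureCounts 1.6.5. The methods leave out multi-mapping and multi-overlapping reads; they state this, and a stranded setting, for another organism's libraries and refer back to it for EBs, whose kit does not mark strand, so the strand setting used here is unknown. The methods describe an earlier pipeline for KO against WT, but the WT counts stood in the same table. Libraries were made with TruSeq RNA v2, a poly(A) kit. Symbols came from GENCODE M21, and 241 identifiers had none. Depth was 27362913 to 28914312 counts, and 0 counts in a library allow up to 3 counts, or 0.104 to 0.110 CPM. Such limits cover counting error only.

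Each pair of groups (6 libraries) was fitted on the whole table with edgeR 4.0.16 in R 4.3.3 (TMM, filterByExpr, quasi-likelihood test, Benjamini-Hochberg), and again with the mt- total as library size. Shares and ratios were tested by exact permutation (SciPy 1.17.1). Alternatives included DESeq2 1.42.0. The members, gene lists, ratios and tests were chosen with earlier results of these data known. All members were accounted for. tRNA genes were named from a mean of 10 counts, and nuclear genes if among 13 set by name (such as Polrmt) or among up to 2 strongest calls per list and comparison at 10 CPM or more. The study calls the 3 libraries of a group biological replicates, and p-values measure the spread between them. The edgeR fit with TMM scaling was tested on counts simulated for KO vs WT.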

Additional observations from a re-analysis of the deposited data

How the results depend on the processing

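Calls were recomputed with DESeq2, other size factors, other filters, thinned counts, a joint fit, the replicate number as a block and each library left out, and by a tested minimum fold. Without that minimum, counts of called members ranged from 13 to 15 (KO vs WT), 13 to 14 (KO_PAPC vs KO) and 15 to 17 (KO_PAPC vs WT), and with a library left out from 14 to 16, 13 to 14 and 15 to 16. Of these alternatives, only a tested minimum of 1.5-fold moved a count by over 1.5 times, to 5, 3 and 7, beside 21, 37.8 and 17.7% of all genes. With the replicate block they were 15, 14 and 15 (against the mitochondrial total 15, 10 and 16). Same-numbered libraries showed no shared deviation from their group means (r from -0.041 to 0.063). The labels do not say whether the numbers pair the samples, and this check cannot exclude it. Differences of the mitochondrial share ranged from 0.103 to 0.117, -0.693 to -0.650 and -0.583 to -0.540 percentage points with a library left out. Of 765 alternative values of single members 719 kept direction and call, 38 lost the call (29 under the minimum fold), 2 gained it and 6 turned direction; against the mitochondrial total these were 482, 11, 9 and 8 of 510.

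Values that turned direction, none of them called, were those of mt-Tt (KO_PAPC vs KO with library totals, -0.015; KO_PAPC vs WT with a library left out, -0.25 to 0.11) and mt-Tp (KO_PAPC vs WT with DESeq2, 0.0033, and with a library left out -0.11 to 0.12). Against the mitochondrial total, for KO_PAPC vs KO, they were mt-Nd1 scaled to mitochondrial mRNAs (0.042) and, with a library left out, mt-Tl1 (-0.043 to 0.061), mt-Nd6 (-0.0071 to 0.026) and mt-Te (-0.14 to 0.25). The cause was not tested.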

Other observations

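Of the nuclear pseudogenes that share 51-base windows with the mitochondrial genome, most had 0 to 4 counts in every library. Gm28438 on chromosome 1 had 117, 94 and 92 counts in WT, 66, 81 and 87 in KO and 44, 57 and 51 in KO_PAPC. Gm13340 and Gm13341 on chromosome 2 had 36 to 66 and 28 to 49 counts. Gm28438 shares its windows with mt-Nd3 and Gm13341 with mt-Co2, both listed at 0, and Gm13340 with mt-Co1.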
